A study of Mus musculus with 13 samples.

Results

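Retinoic acid is the signalling form of vitamin A, and 9 genes that carry, take up, synthesise, bind, break down or sense it were followed in mammary fibroblasts. They were chosen by symbol from the 32285 genes of the files: Rbp4 and Stra6 (carriage and uptake), Aldh1a1, Aldh1a2 and Aldh1a3 (synthesis), Crabp1 and Crabp2 (binding in the cell), Cyp26b1 (breakdown) and Rarb (a nuclear receptor). Their values were read over fibroblast barcodes, which are droplets with 500 to 7500 genes, at most 10% mitochondrial UMIs, at least 50 UMIs of Dcn, Lum and Col1a2 per 10000, and no UMI of Epcam, Pecam1, Rgs5, Sox10, Ptprc or Myog. A UMI is a tag that marks 1 captured RNA molecule. The 13 libraries held 100523 such barcodes of 120355 in all.

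The study profiled sorted mammary stromal cells from mice in droplets, with a chemistry that reads the 3′ ends of RNAs. The stage libraries came from C57BL/6 females at puberty (4 weeks), as adult virgins (9 weeks), at day 14.5 of pregnancy, day 10 of lactation and day 4 of involution, with 1 library each, made from 2 females. Ages are those of the labels, and the study's methods give the pubertal mice as slightly older. Wild-type C57BL/6 females given placebo or medroxyprogesterone acetate with estradiol (MPA+E) gave 2 libraries each at 9 weeks, and each of those pooled 2 females. The stage and hormone cells were sorted as lineage-negative and CD24-negative. The hyperplasia and tumour libraries, 2 each, were of the genotype Pdgfra-GFP KI/+ MMTV-Wnt1 T/+, in a strain mixed from C57BL/6 and FVB, and were sorted for GFP. In this model the MMTV promoter drives Wnt1 in the mammary epithelium, and the GFP marks cells that use the Pdgfra locus. The study's methods call the hyperplastic glands and tumours paired, and the labels give both libraries of number 1 an age of 45 weeks and both of number 2 an age of 17 weeks. Strain, sort, age and transgene therefore differ together between the Wnt1 libraries and the normal ones, and their parts cannot be told apart.

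Retinol travels in blood bound to the carrier protein that Rbp4 encodes, and STRA6 is a membrane receptor that lets it into cells. Retinol dehydrogenases and then the retinaldehyde dehydrogenases of the Aldh1a family turn it into retinoic acid. CRABP proteins bind retinoic acid in the cell, CYP26 enzymes oxidise it, and nuclear retinoic acid receptors sense it. A cell that makes retinoic acid and a neighbour that responds to it are often different cells. Rarb is at the same time a receptor and a textbook target gene, switched on through a response element in its own promoter.

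That element was looked for, because it links the receptor member to the other genes of the pathway. The motif searched was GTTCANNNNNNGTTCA, the core of a direct repeat of hexamers with 5 bases between them, on both strands of the 300 bases around each gene start in a RefSeq table (250 before, 50 after, GRCm38.p6). It was found in 25 of 32851 windows (0.0761%). The table held 7 of the 9 members, and 1 of them, Rarb, had the motif; of the 34 other listed retinoid genes in the table, 1 had it, Cyp26a1, another retinoic acid oxidase. Both elements are shown with 6 bases on either side, on the strand of the gene, with the element in capitals.
Rarb, chr14:16575507-16575535, minus strand: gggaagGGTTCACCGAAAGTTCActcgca
Cyp26a1, chr19:37697770-37697798, plus strand: taaagaTGAACTTTGGGTGAACTaatttg
The Rarb element began 53 bases before the RefSeq start and the Cyp26a1 element 32 bases before it, where the motif reads on the opposite strand. Exons of GENCODE M21 transcripts (2 for Rarb and 1 for Cyp26a1) cover these stretches, so the start differs between annotations. A match of letters is a description of the window and does not show that a receptor sat there. The RNA of these genes is given with the comparisons.

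On GRCm38 (GENCODE M21), Crabp1 lies on chromosome 9 at 54764748 to 54773110 on the plus strand. Stra6 lies on the same chromosome at 58063788 to 58153996, and Aldh1a2 at 71215789 to 71296243. Aldh1a1 (20492715 to 20643465) and Rbp4 (38116629 to 38125281) are both on chromosome 19. Aldh1a3 is on chromosome 7 at 66390890 to 66427517, Crabp2 on chromosome 3 at 87948666 to 87953376, Cyp26b1 on chromosome 6 at 84571414 to 84593908 and Rarb on chromosome 14 at 16430839 to 16819156. Of the 9 members, Stra6, Aldh1a1, Aldh1a2 and Rarb overlap another annotated gene, and only Stra6 has one on its own strand (Gm16131).

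The libraries held 56551189 to 112550204 UMIs each, and the median fibroblast barcode held 3990 (pregnancy) to 20256 (tumour 2) UMIs. All 5 fibroblast markers were present in every library, with a summed level of 18210 to 27990 UMIs per 1000000 (CPM). Of 8 epithelial markers, 5 to 7 had UMIs, Epcam was at 0 by the rule, and the summed level was 0.796 to 3.76 CPM in 12 libraries and 41.5 CPM in pregnancy. Milk protein genes reached 545 CPM in lactation, 19.9 CPM in pregnancy and 7.52 CPM in involution, and were at most 0.0271 CPM elsewhere; the part of such RNA in the members' stage levels was not tested. No pair of libraries shared more than 34 fibroblast barcodes (at most 0.503% of the smaller library). All 9 members passed the filter on low counts in each of the fitted comparisons.

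**Figure D1:**
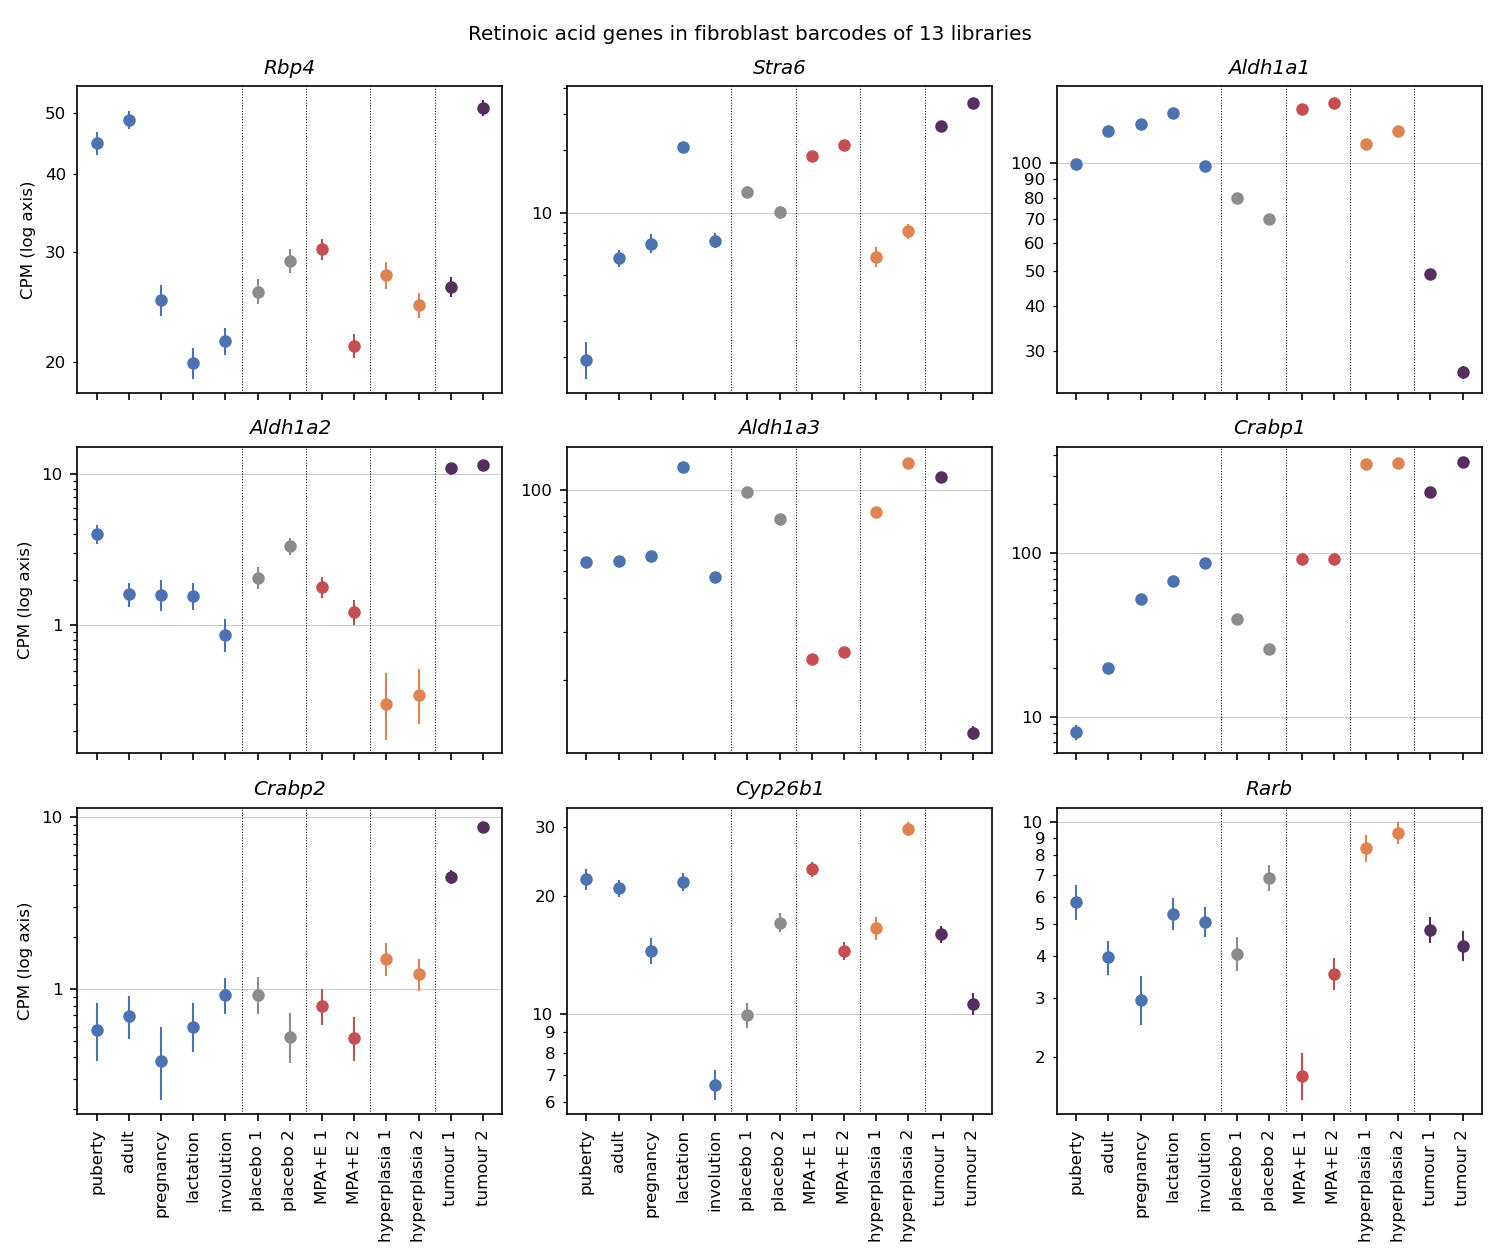
Level of each gene in the fibroblast barcodes of every library, in CPM on a log axis whose range differs between panels. Points are libraries (blue: stages; grey: placebo; red: MPA+E; orange: hyperplasia; purple: tumour) and bars are exact 95% Poisson intervals of the UMI count, which cover counting error only; Crabp1 runs from 8.02 CPM in puberty to 365 CPM in tumour 2.

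Across the stages, Crabp1 and Stra6 spanned the widest ranges of the 9 genes, and both were lowest in puberty. Crabp1, the cytoplasmic binding protein, was at 8.02 CPM in puberty and 19.8 CPM in the adult, and it reached 52.5, 67.7 and 87.8 CPM at pregnancy, lactation and involution. It was higher at each later stage, and the highest stage was 10.9 times the lowest (interval 9.88 to 12.1). Stra6, the retinol receptor, was at 1.95 CPM in puberty, 6.03 and 7.09 CPM in the adult and pregnancy, 20.7 CPM in lactation and 7.32 CPM at involution (highest over lowest 10.6, 8.61 to 13.2). Its peak was in lactation, and by involution it was back at the level of pregnancy. With 1 library per stage there is no test between stages, and the intervals are exact and cover counting error only.

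The synthesis genes differed from one another over the same stages. Aldh1a3 stood at 54.2, 54.5 and 56.8 CPM in puberty, adult and pregnancy, at 122 in lactation and at 47.5 in involution. Lactation alone stood apart, at 2.14 times pregnancy (2.05 to 2.24). Aldh1a1 stayed between 98.3 CPM (involution) and 137 CPM (lactation), the smallest ratio of the 9 genes at 1.40. Aldh1a2, the isoform best known from embryos, was scarce: it fell from 4.00 CPM in puberty to 1.60, 1.58 and 1.56 at the next 3 stages and to 0.862 in involution.

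Rbp4 was high before pregnancy and low from pregnancy on. Its level was 44.8 and 48.8 CPM in puberty and the adult, and 25.1, 19.9 and 21.6 CPM at the 3 later stages. Cyp26b1, which breaks retinoic acid down, stood at 22.0, 20.9, 14.5 and 21.7 CPM through lactation and at 6.62 CPM in involution, 0.305 of the lactation level (0.274 to 0.338). Involution was thus its one low stage and also the stage where Crabp1 was highest. Rarb stayed between 2.97 CPM (pregnancy) and 5.79 CPM (puberty). Crabp2, the second binding protein, did not pass 0.915 CPM at any stage, and its highest level rests on 68 UMIs.

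In all, 7 of the 9 members were at least 2-fold apart between their highest and lowest stages, where 33.7% of 15330 genes with at least 50 UMIs were (median ratio of all: 1.70). The 7 include Crabp2, on 68 against 18 UMIs (interval 1.42 to 4.32), whose direction turned with non-fibroblasts kept. The 3 libraries of 9-week females without hormone (adult and both placebo libraries) give a scale for such ratios: members differed among them by 1.73 (Rarb) to 2.10 times (Cyp26b1). The stage ratios of Crabp1 and Stra6 are well beyond that spread, Aldh1a2 (4.65) and Cyp26b1 (3.33) are above it, and those of Rbp4 (2.45), Aldh1a3 (2.56), Crabp2 (2.42) and Rarb (1.95) are close to it. For Crabp1 the spread among these libraries was 2.01. Its steps from puberty to adult (2.46) and adult to pregnancy (2.66) are above that, and those to lactation (1.29) and on to involution (1.30) are below it. The placebo libraries belong to a separate experiment with deeper barcodes.

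The share of fibroblasts with Crabp1 was lowest in puberty and highest in the 4 Wnt1 libraries. To compare shares across depths, each barcode was thinned to 2000 UMIs and shallower barcodes were left out (86 to 1310 per library). A Crabp1 UMI was then found in 0.748% of puberty and 3.54% of adult barcodes, and in 4.70%, 7.15% and 6.57% of those from pregnancy, lactation and involution. Placebo libraries had 5.84% and 4.06%, MPA+E libraries 10.5% and 11.6%, hyperplasia libraries 28.3% and 28.6% and tumour libraries 20.5% and 24.2%. Without thinning the shares ran from 1.38% (puberty) to 45.0% (tumour 2).

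The number of UMIs per barcode had a narrower range. Barcodes with Crabp1 held 1.82, 1.53, 1.86, 1.53 and 2.48 UMIs of it from puberty to involution, 1.68 and 1.58 in placebo, 2.06 and 1.85 in MPA+E, 2.89 and 3.10 in hyperplasia and 2.62 and 3.23 in tumours. Involution and the 4 Wnt1 libraries held the most.

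Other cell types, pooled over the libraries with at least 20 of their barcodes, give a background for these shares. The 8 libraries that gave pericytes include none of the Wnt1 libraries, so the pools do not match the fibroblast pool library by library. Among other barcodes thinned in the same way, Crabp1 was found in 2 of 867 pericytes (0.231%, median depths of 2702 to 7420 UMIs per library), 4 of 561 epithelial barcodes (0.713%, 4482 to 14752 UMIs) and 5 of 214 endothelial barcodes (2.34%, 2502 to 4569 UMIs). Fibroblast barcodes in the same count had Crabp1 in 11.2% of 96297, with median depths of 4204 to 20795 UMIs. The puberty share of 0.748% lies inside the exact 95% interval of the epithelial share (0.195% to 1.82%), so by share alone it could not be told from background. The wider endothelial interval (0.763% to 5.37%) also covers the adult, pregnancy and placebo 2 shares; of its 5 barcodes with Crabp1, 3 came from hyperplasia 1, where they were 12.0% of 25 endothelial barcodes against 28.3% of fibroblasts. Of the 50 puberty barcodes with Crabp1, 6 also held Stra6 where 0.157 were expected. Stra6 was found in 0 of 867 pericytes, which allows up to 0.346% of barcodes with a UMI (3 counts of the total; a limit on barcodes with a UMI, not on cells expressing the gene), and in 0 of 561 epithelial barcodes (up to 0.535%), against 2.41% of fibroblasts, and Aldh1a3 in 0.231% of pericytes against 9.86%. Crabp2 and Rarb were different: Crabp2 was in 17 of 561 epithelial barcodes (3.03%) and 0.237% of fibroblast barcodes, and Rarb in 18 of 867 pericytes (2.08%) and 0.992% of fibroblasts. A fibroblast share at or below those of other cells is not read as fibroblast expression of these genes.

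**Figure D2:**
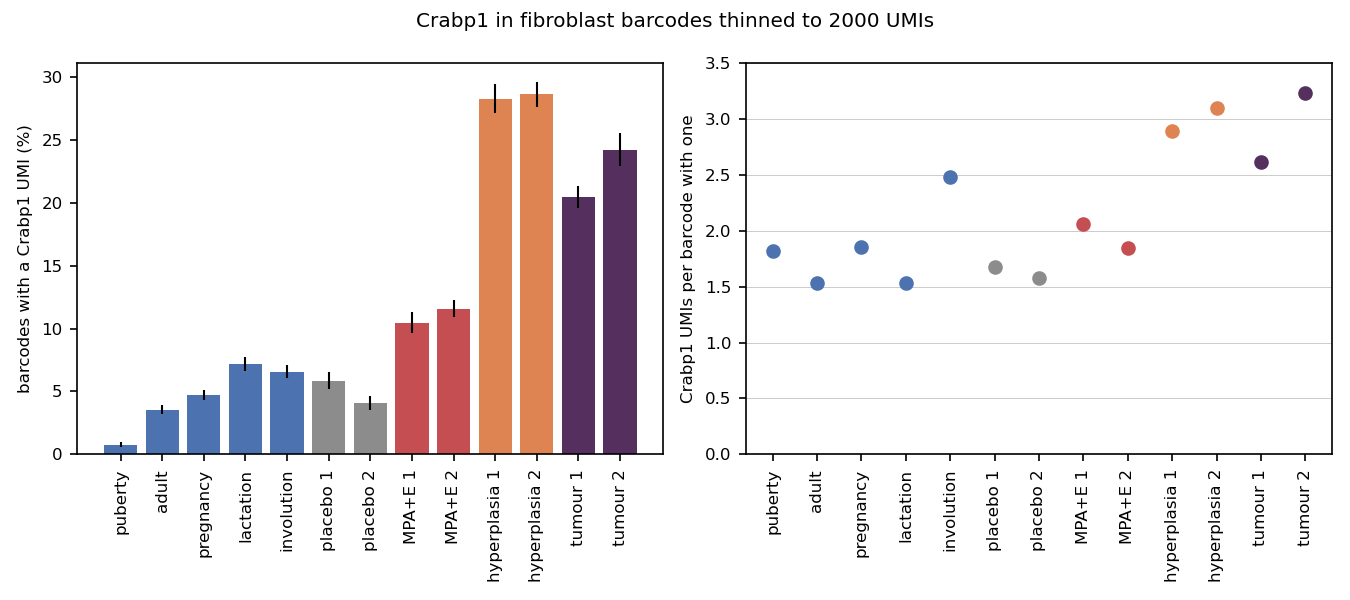
Left, share of thinned fibroblast barcodes with a Crabp1 UMI (percent, bars from 0) with exact 95% binomial intervals; right, mean number of Crabp1 UMIs in those barcodes, by library. Shares run from 0.748% in puberty to 28.6% in hyperplasia 2. The number per barcode, which cannot fall below 1, runs from 1.53 to 3.23.

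The next question was whether members are found in the same fibroblasts. Within each library, the number of barcodes with a UMI of both genes was set against the number expected from their separate shares, for pairs with at least 5 expected barcodes in at least 7 libraries; 17 of the 36 pairs qualified. Uptake and binding went together. In the adult library, 59 barcodes held both Stra6 and Crabp1 where 5.57 were expected, 10.6 times as many, and 37.6% of the Stra6 barcodes also held Crabp1. The ratio was above 1 in 10 of 10 libraries, with a median of 4.20 and a lowest value of 2.30 in tumour 2. It was the 1 pair of the 17 that was above expectation in every library counted.

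Aldh1a3 lay apart from both. In placebo 1, 636 barcodes held Aldh1a3 and 274 held Crabp1, and 2 held both where 37.1 were expected. The ratio of Aldh1a3 with Crabp1 was below 1 in 12 of 12 libraries, with a median of 0.0925 and a highest value of 0.422 in tumour 2. Aldh1a3 with Stra6 was below 1 in 11 of 12 libraries (median 0.109; 1.10 in tumour 2). Both medians lay nearer 1 without thinning, at 0.236 and 0.228, where the ratios were below 1 in all 13 libraries; at 4000 UMIs that of Aldh1a3 with Crabp1 was 0.176. Barcodes with an Aldh1a3 UMI thus held one of Stra6 or Crabp1 less often than expected, except for Stra6 in thinned barcodes of tumour 2. These are counts of RNA and not of the proteins.

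Of the other pairs, Rbp4 was below expectation with Aldh1a3 in 13 of 13 libraries (median 0.244) and with Aldh1a1 in 13 of 13 (median 0.749). Without thinning these medians were 0.386 and 0.921, with 3 and 2 libraries above 1. Cyp26b1 with Crabp1 was below 1 in 10 of 11 libraries (median 0.234), with tumour 1 the exception at 2.03, and its median was 0.392 without thinning. Aldh1a1, the broadest of the members (17.3% of fibroblast barcodes), was found with Crabp1 above expectation in 9 of 13 libraries (median 1.63), and in puberty at 0.239. That direction rested on the thinning: the median was 1.15 at 4000 UMIs (8 of 13 above 1) and 0.998 without thinning (6 of 13). These ratios describe barcodes of shared libraries and carry no test. Ratios near 1 are not read as a link.

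**Figure D3:**
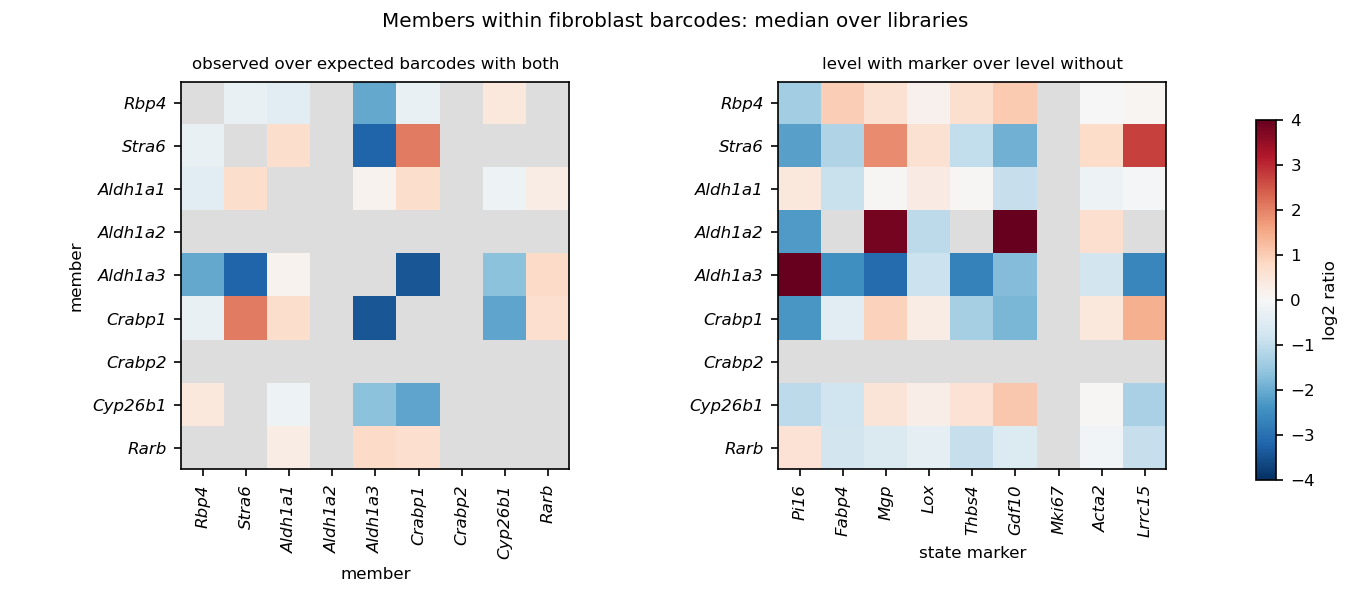
Left, median over libraries of observed over expected barcodes with both members; right, median ratio of a member's level in barcodes with a state marker to that in barcodes without it. Colours are log2 ratios on a scale that ends at 4 and -4, and grey cells are the same gene, pairs or markers with too few libraries, or a median of 0; Stra6 with Crabp1 is red (4.20) and Aldh1a3 with Crabp1 is blue (0.0925).

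Known markers of fibroblast states placed the members. Pi16 marks fibroblasts described as progenitors, and Aldh1a3 was higher in barcodes with Pi16. In the adult library, Aldh1a3 stood at 95.8 CPM in barcodes with Pi16 and at 3.80 CPM in those without. The ratio was above 1 in 13 of 13 libraries, with a median of 22.7. It was highest in hyperplasia 2 (69.7) and lowest in tumour 2 (2.14), where 32 of 93 thinned Aldh1a3 UMIs were in barcodes with Pi16, against 1185 of 1224 in the adult. Crabp1 went the other way, lower in barcodes with Pi16 in 12 of 13 libraries (median 0.199) and level in lactation (1.03).

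Crabp1 and Stra6 were low where Gdf10, a marker of adipogenesis-regulatory fibroblasts, was found: both had a ratio below 1 in 13 of 13 libraries, with medians of 0.283 and 0.263. In most libraries they were higher where Lrrc15, a marker of myofibroblastic cells, was found. Stra6 was higher in barcodes with Lrrc15 in 12 of 13 libraries (median 6.59; 0.544 in hyperplasia 2) and Crabp1 in 12 of 13 (median 2.70; 0.399 in hyperplasia 1). Barcodes with Lrrc15 numbered 78 (puberty) to 672 (involution) in the 11 other libraries and 2317 and 1666 in the tumours. In tumour 1 and tumour 2 the ratios were 4.62 and 1.93 for Stra6, and 2.64 and 1.23 for Crabp1. The highest Stra6 ratio, in puberty, rests on 9 UMIs in barcodes with Lrrc15. Acta2, another myofibroblastic marker, gave weaker ratios. With it, Crabp1 was higher in 7 of 9 libraries (median 1.35; 0.709 in tumour 2) and Stra6 in 7 of 9 (median 1.67; 0.383 in MPA+E 1). Both were also mostly higher with the matrix-remodelling markers Mgp (Crabp1 10 of 13, median 1.91; Stra6 12 of 13, median 3.68) and Lox (10 of 13, 1.24; 11 of 13, 1.53).

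Breakdown and the scarce synthesis enzyme went with Gdf10. Cyp26b1 was higher in barcodes with Gdf10 in 13 of 13 libraries (median 2.13), from 1.12 in MPA+E 2 to 3.82 in placebo 2. Aldh1a2 was higher with Gdf10 in 10 of 11 libraries (median 16.4) and with Mgp, a matrix protein gene, in 11 of 11 (median 14.2). In puberty 53 of its 75 thinned UMIs were in barcodes with Gdf10, where its level was 29.2 CPM against 1.91 CPM elsewhere. In the tumours, where Aldh1a2 was most abundant, the Gdf10 ratio was 1.31 and 0.966, so that its UMIs no longer lay with Gdf10. Rbp4 was higher with Gdf10 (12 of 13 libraries, median 2.05) and with Fabp4, a lipid-binding gene of preadipocytes (12 of 13, median 1.97), and lower with Pi16 in 13 of 13 (median 0.377).

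**Figure D4:**
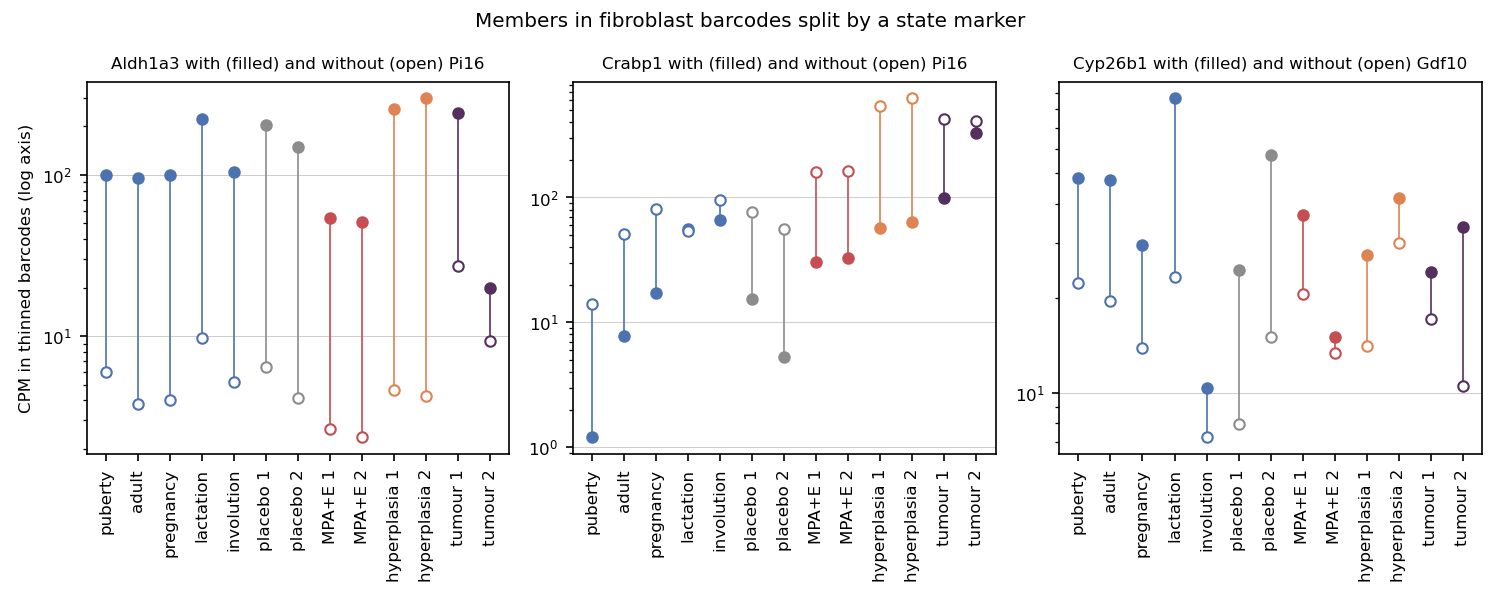
Level of Aldh1a3 and Crabp1 in barcodes with (filled) and without (open) a Pi16 UMI, and of Cyp26b1 with and without Gdf10, in CPM of thinned barcodes on a log axis, by library (colours as for the levels by library). The filled Aldh1a3 point is above the open one in all 13 libraries, while the filled Crabp1 point is below in 12 of 13.

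Genes most like each member within the libraries were ranked by the mean log2 ratio of their level in barcodes with and without the member, among 9592 genes found in at least 1% of barcodes. For Crabp1, the highest of all was Stra6 (3.24, above 0 in 13 of 13 libraries). It was followed by the collagens Col25a1 (3.15), Col7a1 (2.98) and Col13a1 (2.95), the Fc receptor Fcgr2b (3.05), the water channel Aqp1 (2.99), the nitric oxide synthase Nos1 (2.95) and the agouti gene, symbol a (2.91). The list of Stra6, over 12 libraries, was Col7a1 (2.86), Sbspon (2.80), Nos1 (2.80) and Aqp1 (2.79), 3 of which are also on that of Crabp1. For Aldh1a3, the genes were Dmkn (2.70), Krtdap (2.57), Bmp3 (2.44) and Akr1c18 (2.40).

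Krtdap is also a keratinocyte marker. The summed level of the keratinocyte markers Krtdap and Krt10 was 20.4 (tumour 2) to 60.4 CPM (puberty) in 12 libraries and 150 CPM in hyperplasia 2. Tumour 2 and hyperplasia 2 are also the lowest and highest libraries for Aldh1a3. Elsewhere the sum and the gene did not move together. The sum was 52.7 and 55.0 CPM in the placebo libraries and 50.9 and 54.0 CPM in the MPA+E libraries. Mean Aldh1a3 was 88.0 CPM in placebo and 24.6 CPM in MPA+E. Both markers had UMIs in all 13 libraries, and their part in the Aldh1a3 levels was not tested.

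Under MPA+E, uptake, binding and 1 synthesis gene rose and another synthesis gene fell. In this comparison 2.69% of 15642 genes were called higher and 1.64% lower by edgeR's quasi-likelihood test at an adjusted p under 0.05, and 3 members were called higher (Stra6, Aldh1a1 and Crabp1) and 1 lower (Aldh1a3). Libraries of the groups did not overlap for 6 of the 9 members and for 43.6% of all genes.

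Aldh1a3 showed the largest change of the members. The placebo libraries had 98.0 and 78.1 CPM and the MPA+E libraries 23.8 and 25.4 CPM. Both treated libraries were far below both controls, with a log2 fold change of -1.82 ± 0.12 (SE; edgeR adjusted p = 0.00716). The share of barcodes with Pi16, where the gene was found, was 45.7% and 47.8% in the placebo libraries. It was 40.5% and 42.2% in the treated ones, without overlap. Within the barcodes with Pi16, Aldh1a3 was at 203 and 149 CPM in the placebo libraries and at 54.3 and 51.3 CPM in the treated ones. A Pi16 UMI does not define a cell state, and the part of fibroblast composition was not tested. In bulk sums over fibroblasts, fewer cells with a gene and less RNA per cell cannot be told apart. The share of thinned barcodes with Aldh1a3 was 13.6% and 11.1% in placebo libraries and 3.79% and 3.92% in MPA+E libraries.

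Crabp1 rose from 39.7 and 26.1 CPM to 91.8 and 92.4 CPM, a log2 fold change of 1.51 ± 0.18 (edgeR adjusted p = 0.0194). The treated libraries were nearly equal and both above the controls. Aldh1a1 rose from 79.8 and 69.7 CPM to 141 and 147 CPM (0.96 ± 0.10, edgeR adjusted p = 0.0151), and its share of thinned barcodes was 14.1% and 12.4% without and 21.3% and 21.5% with hormone. Stra6 rose from 12.6 and 10.0 CPM to 18.8 and 21.2 CPM (0.84 ± 0.14, edgeR adjusted p = 0.0431). Its call was the least firm. By edgeR it was lost with a mitochondrial limit of 5% (adjusted p = 0.0717) and a fibroblast threshold of 100 (0.0593). It was also lost with non-fibroblasts kept (0.0716) and without the filter on low counts (0.0533). In the adult stage library, Aldh1a1 (123 CPM) and Aldh1a3 (54.5 CPM) stood between the placebo and MPA+E levels. Crabp1 (19.8 CPM) and Stra6 (6.03 CPM) stood below placebo there. Among the adult and placebo libraries, Aldh1a1 differed 1.76 times and Stra6 2.10 times, against folds of 1.95 and 1.79 under MPA+E. Crabp1 differed 2.01 times among them, against a fold of 2.85.

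The other members did not pass the test. Rarb had 4.07 and 6.85 CPM in the placebo libraries against 1.76 and 3.54 CPM (-1.03 ± 0.46, edgeR adjusted p = 0.326). The summed pericyte markers (3 of 4 with UMIs in every library, Rgs5 at 0 by the rule) were lower in the same libraries, at 16.5 and 15.3 CPM against 8.34 and 9.81 CPM, and their part in the Rarb levels was not tested. Aldh1a2 had 2.04 and 3.33 CPM against 1.79 and 1.22 CPM (-0.85 ± 0.34, edgeR adjusted p = 0.287). The groups did not overlap for either gene, but libraries within a group lay far apart. Rbp4, Crabp2 and Cyp26b1 overlapped between the groups.

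The other retinoid genes were mostly not called. Of 36, 28 could be tested, and 2 rose and 1 fell; their median log2 fold change was -0.03 and that of all genes 0.01. Adh1, a retinol-oxidising alcohol dehydrogenase, rose from 30.5 and 30.9 CPM to 77.8 and 72.8 CPM (1.30 ± 0.10, edgeR adjusted p = 0.00745), and Adh7 of the same family rose by 0.66 ± 0.10 (0.0347). Fabp5, a fatty acid carrier that also binds retinoic acid, fell by 0.91 on the log2 scale (0.0173). Of 12 retinoid-responsive genes, 7 could be tested and 1 was called. That was Tgm2, a transglutaminase, which rose from 22.0 and 30.5 CPM to 181 and 277 CPM (3.14 ± 0.33, edgeR adjusted p = 0.0139). In the adult stage library, Tgm2 stood at 104 CPM, between the placebo and MPA+E levels.

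With 1 library left out, its group is a single library that is assumed to vary like the others in the fit, so a lost call can be a loss of power. Without placebo 1, none of the 9 members was called by edgeR (22 genes in all, 6 members at an unadjusted p under 0.05, adjusted p of 0.0515 for Aldh1a3 and Crabp1, 0.12 for Aldh1a1 and 0.167 for Stra6). Without placebo 2, 1 member was called (Aldh1a3; 42 genes in all; adjusted p of 0.0687 for Crabp1, 0.133 for Aldh1a1 and 0.263 for Stra6). The 4 log2 fold changes kept their direction: without placebo 1 and placebo 2, Aldh1a3 was at -1.72 and -1.92, Crabp1 at 1.77 and 1.29, Aldh1a1 at 0.99 and 0.93, and Stra6 at 0.94 and 0.74.

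**Figure D5:**
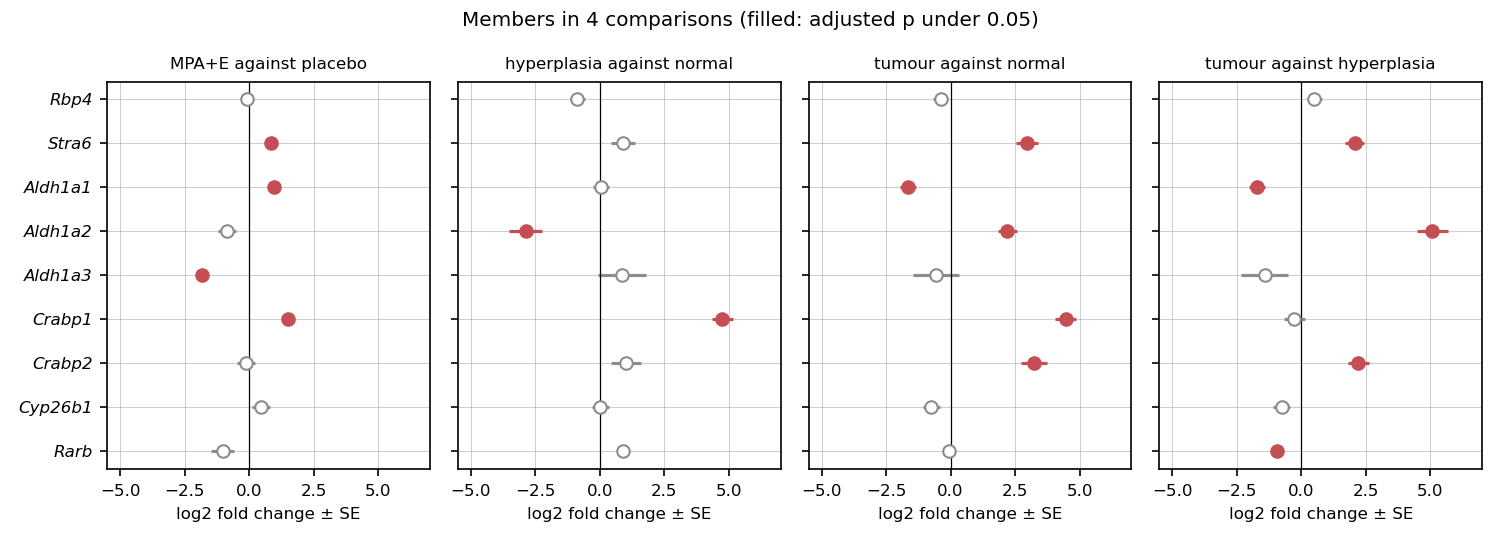
Log2 fold change of each gene with its standard error (bars) in the 4 comparisons; filled red points have an adjusted p under 0.05 (edgeR for MPA+E against placebo, limma-voom for the others). Crabp1 is the 1 gene called higher in each of the first 3 comparisons, and Aldh1a2 is called lower in hyperplasia and higher in tumours.

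In hyperplasia, Crabp1 rose far above normal tissue while Aldh1a2 nearly disappeared. Normal tissue was the puberty and adult libraries joined, and 6 libraries were fitted together with limma-voom. The 3 contrasts of this fit share libraries, so their values are given side by side and were not set against each other. Of 16302 genes, 7.70% were called higher and 6.29% lower in hyperplasia, and 1 member was called in each direction. Libraries of the groups did not overlap for 7 of the 9 members and for 70.6% of all genes.

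Crabp1 stood at 8.02 and 19.8 CPM in normal tissue and at 354 and 360 CPM in hyperplasia. The hyperplasia libraries were almost equal and many times above either control, with a log2 fold change of 4.74 ± 0.40 (limma-voom adjusted p = 0.00629). Every other normal library was lower as well, up to 92.4 CPM under MPA+E. Aldh1a2 stood at 4.00 and 1.60 CPM in normal tissue and at 0.301 and 0.345 CPM in hyperplasia (-2.88 ± 0.63, limma-voom adjusted p = 0.0371). Its hyperplasia levels were the lowest of the 13 libraries.

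Rarb, at 5.79 and 3.97 CPM in normal tissue and 8.39 and 9.32 CPM in hyperplasia, missed the threshold (0.89 ± 0.24, limma-voom adjusted p = 0.053), and passed it with another scaling (RLE, 0.0497) and with DESeq2 (0.0212). Aldh1a3 was at 82.7 and 125 CPM against 54.2 and 54.5 CPM and was not called (0.86 ± 0.92, limma-voom adjusted p = 0.537), while without either tumour library in the fit it was (0.0188 both times). Rbp4, at 27.6 and 24.7 CPM against 44.8 and 48.8 CPM, was not called either (-0.88 ± 0.28, limma-voom adjusted p = 0.0828), though DESeq2 called it (0.0381).

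Of the 30 other retinoid genes tested, 2 rose and 2 fell (median -0.17, all genes -0.01). Rara, a retinoic acid receptor, rose from a mean of 12.3 to 26.9 CPM (1.09 ± 0.16, limma-voom adjusted p = 0.0163), and Cyp1b1, an oxidase of retinoids and steroids, from 28.9 to 67.6 CPM (1.20 ± 0.29, limma-voom adjusted p = 0.044). Fabp5 fell by 1.20 (0.0313) and Rdh14 by 0.72 (0.0435) on the log2 scale. Of the 8 retinoid-responsive genes tested, Rarres1 rose by 2.75 ± 0.31 (0.00948) and Tgm2 fell by 2.61 (0.00671). Tgm2 was at 16.9 and 22.2 CPM in hyperplasia, close to the 22.0 and 30.5 CPM of the placebo libraries, which were not part of the normal group.

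Without either hyperplasia library, 1 or 2 genes in all and no member were called by limma-voom (3 members at an unadjusted p under 0.05), with the remaining library again assumed to vary like the others. The log2 fold changes hardly moved, at -2.80 and -2.97 for Aldh1a2 (adjusted p of 0.22 and 0.159) and 4.73 for Crabp1 (adjusted p of 0.0677 without hyperplasia 1 and 0.0643 without hyperplasia 2). Without the puberty library, Aldh1a2 was at -2.27 and lost its call (limma-voom adjusted p = 0.0982) and 8 genes were called in all, and without the adult library 183. Without either tumour library, 5 members were called (Rbp4, Aldh1a3 and Rarb added), and 4810 and 4799 genes in all. With a replicate block added, 3582 genes were called in place of 2280 and the same 2 members. The block set apart only the 2 libraries of number 2, so puberty and adult were coded with number 1. It is thus no block on the mouse for this comparison, whose values are at the level of number 1.

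In tumours, the uptake receptor, Crabp1 and Aldh1a2 were above normal tissue and Aldh1a1 was below it. Crabp2 was called higher as well, at a share of barcodes that is not read as fibroblast expression. Of all genes, 12.7% were called higher and 10.1% lower, with 4 members higher and 1 lower. Libraries of the groups did not overlap for 6 of 9 members and 64.5% of all genes.

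Crabp1 stood at 237 and 365 CPM in tumours (4.47 ± 0.40 against normal tissue, limma-voom adjusted p = 0.00194). Stra6 stood at 26.2 and 33.8 CPM, above all 11 other libraries, against 1.95 and 6.03 CPM in normal tissue (2.97 ± 0.43, limma-voom adjusted p = 0.00689). Crabp2 stood at 4.48 and 8.74 CPM against 0.575 and 0.691 CPM (3.24 ± 0.50, limma-voom adjusted p = 0.00868). These were the 2 highest Crabp2 libraries, though the gene was found in only 0.771% and 1.20% of thinned tumour barcodes, below its share in epithelial barcodes. The summed epithelial markers were at 1.78 and 3.76 CPM there and at 1.61 to 2.61 CPM in normal tissue. Pregnancy, with 41.5 CPM of these markers, had the lowest Crabp2 of all libraries (0.379 CPM). In tumour barcodes with Acta2, Crabp2 was 2.78 (tumour 1) and 2.16 times (tumour 2) its level without. The part of epithelial RNA was not tested.

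Aldh1a2 stood at 10.9 and 11.5 CPM in tumours (2.20 ± 0.37, limma-voom adjusted p = 0.0106), also above all other libraries. Aldh1a1 fell to 49.0 and 26.3 CPM from 99.4 and 123 CPM (-1.65 ± 0.31, limma-voom adjusted p = 0.0146), the 2 lowest libraries of the series. The synthesis genes thus changed in opposite directions in the same tumours.

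Aldh1a3 could not be given a direction. It stood at 112 CPM in tumour 1 and at 12.8 CPM in tumour 2, on either side of the normal 54.2 and 54.5 CPM (-0.56 ± 0.91, limma-voom adjusted p = 0.683). Without tumour 1 it fell by 2.15 (adjusted p = 0.000784), and without tumour 2 it rose by 1.04 (0.0247). The share of barcodes with Pi16 was 48.4% in tumour 1 and 19.7% in tumour 2. Within those barcodes Aldh1a3 was at 241 CPM in tumour 1 and 19.95 CPM in tumour 2, and the part of fibroblast composition was not tested. The summed progenitor markers (Pi16 and 6 others) were at 3872 and 961 CPM. Rbp4 also differed, at 26.4 CPM in tumour 1 and 51.0 CPM in tumour 2.

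Tumour against hyperplasia compared the tissues that the methods call paired, in the same fit without a term for the mouse. Of all genes, 15.4% were called higher and 13.9% lower, and libraries did not overlap for 72.2% of genes and 6 of 9 members. The called members were 3 higher (Stra6, Aldh1a2 and Crabp2) and 2 lower (Aldh1a1 and Rarb). Stra6 was at 6.11 and 8.12 CPM in hyperplasia (2.07 ± 0.37, limma-voom adjusted p = 0.0147), and Aldh1a2 had the largest difference of any member (5.08 ± 0.59, limma-voom adjusted p = 0.00571). Crabp2, at 1.49 and 1.22 CPM in hyperplasia, was higher in tumours by 2.21 ± 0.42 (limma-voom adjusted p = 0.0164), and so were the summed epithelial markers, at 1.78 and 3.76 CPM against 0.796 and 1.39 CPM, whose part was not tested. Aldh1a1, at 113 and 123 CPM in hyperplasia, was lower by 1.71 (log2 fold change -1.71 ± 0.31, limma-voom adjusted p = 0.0148).

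Crabp1 was not called at this step, and Rarb was called lower. Crabp1, high in both tissues, was not called (-0.27 ± 0.40, limma-voom adjusted p = 0.619). Rarb, the receptor gene with the element printed above, was at 4.78 and 4.29 CPM in tumours against 8.39 and 9.32 CPM (-0.96 ± 0.22, limma-voom adjusted p = 0.0251). Its share of barcodes is not read as fibroblast expression. The summed pericyte markers were at 23.1 and 20.2 CPM in tumours against 13.1 and 12.9 CPM, and their part in the Rarb levels was not tested. Cyp26a1, the other gene with the element, was at 9.50 and 2.21 CPM in the tumours and at most 0.0821 CPM in the other 11 libraries. It had 974 and 194 UMIs there and 0 to 5 UMIs in each other library, so it passed the filter on low counts through the tumours alone, and no fold or call is read from it.

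Among the 30 other retinoid genes tested, 6 were higher and 6 lower in tumours against normal tissue (median -0.18, all genes -0.01), and 5 higher and 7 lower against hyperplasia (median -0.12, all genes -0.01). Rdh10, the retinol dehydrogenase of the first oxidation step, stood at 54.9 and 120 CPM in tumours and between 20.6 and 29.0 CPM in all other libraries (1.75 ± 0.32, limma-voom adjusted p = 0.0145).

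The alcohol dehydrogenase Adh1 was at 12.1 and 3.70 CPM in tumours, the lowest of the 13 libraries (-2.17 ± 0.51 against normal, limma-voom adjusted p = 0.0293). Also lower than in normal tissue were Dhrs9 (-3.08, 0.00369), the carotenoid oxygenases Bco1 (-3.15, 0.0223) and Bco2 (-4.81, 0.00559), and the receptor Rxrg (-4.07, 0.00613), and higher were Cyp1b1 (2.16, 0.00619) and Rara (1.50, 0.00267), all by limma-voom with the adjusted p after each log2 fold change. Against hyperplasia, Rdh10 (1.80) and Fabp5 (2.05) were higher, and Adh1 (-2.67), Adh7 (-2.38), Bco1 (-3.00), Bco2 (-3.49), Dhrs9 (-2.47), Rxrg (-3.42) and Ncoa1 (-1.27) lower. Of the 8 retinoid-responsive genes tested against normal tissue, Rarres1 (2.71) was higher and Tgm2 (-2.37) lower. The counts of genes higher in tumours, here 2 and against hyperplasia 1, include Cyp26a1, whose levels outside the tumours were near 0; it is also among the 6 and the 5 higher retinoid genes.

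The tumour fits with 1 library left out make the same assumption. Against normal tissue, Aldh1a1 and Crabp2 kept log2 fold changes of -1.77 and 3.16 without puberty (limma-voom adjusted p of 0.0637 and 0.0588) and of -1.52 and 3.36 without adult (0.0917 and 0.0771) but lost their calls, while Stra6, Aldh1a2 and Crabp1 were called without either. Without puberty, 1052 genes were called in all, and without adult 910, and without either hyperplasia library 2132 and 2131. Against hyperplasia, no member was called without hyperplasia 1 (242 genes in all, 6 members at an unadjusted p under 0.05) or without hyperplasia 2 (314 genes, 5 members). The log2 fold changes without hyperplasia 1 and hyperplasia 2 were 1.88 and 2.28 for Stra6, 4.999 and 5.169 for Aldh1a2, 2.35 and 2.05 for Crabp2, -1.76 and -1.66 for Aldh1a1, and -1.03 and -0.89 for Rarb. Without tumour 1, the tumour group is tumour 2 alone, and no count of members is read from that fit. Without puberty or adult, 2975 and 2946 genes were called against hyperplasia, and the same 5 members.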

How the data were processed

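Droplet 3′ RNA sequencing was done on sorted mouse mammary stroma in 13 libraries. Raw UMI counts were deposited as 1 matrix per library, made by the authors with Cell Ranger 6.1.2 on mm10, per the submitters' processing notes; the annotation release is not given in the sources used here. UMIs were summed over fibroblast barcodes per library. Doublets were treated by the excluded genes and the gene maximum only, with no caller. CPM are UMIs per 1000000 UMIs of the fibroblast barcodes. Libraries held 56551189 to 112550204 UMIs, and intervals (Poisson or Clopper-Pearson) cover counting error only. MPA+E was compared with placebo by the edgeR (4.0.16) quasi-likelihood test, and puberty with adult (normal tissue), hyperplasia and tumour by limma-voom (limma 3.58.1) in 1 fit, with filterByExpr, TMM and Benjamini-Hochberg adjustment over all genes. Each fit was tested on simulated counts. Replicates are libraries, so p-values rest on the spread between libraries, with variances moderated across genes. In the limma-voom fit that spread is not of 1 condition. It holds a difference of stage within normal tissue and ages of 45 and 17 weeks within hyperplasia and tumour.

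Barcodes of other types had fewer than 50 UMIs of the 3 fibroblast genes per 10000 and at least 2 UMIs of 1 defining gene. Thinning drew 2000 UMIs per barcode. State ratios were counted in libraries with at least 50 barcodes with the marker and 20 UMIs of the member. Hyperplasia and tumour numbers pair samples because the methods call the tissues paired and same-numbered libraries share an age in the labels; their deviations from group means had a correlation of 0.0843 (16302 genes). Alternatives changed the mitochondrial limit, fibroblast threshold, non-fibroblasts, gene maximum, tool, scaling, filter, normal group, replicate block and each library; DESeq2 was 1.42.0. Named genes were all members, at most 10 called genes of each list with the smallest adjusted p, and the 8 (Crabp1) or 4 (other members) most alike genes. The members and lists were chosen with earlier results of these data known. 1 called gene of the retinoid list is not reported here.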

Additional observations from a re-analysis of the deposited data

How the results depend on the processing

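The precision is limited by 2 libraries per group and 1 per stage, and by low counts of Crabp2, Aldh1a2 and Rarb. Of 567 values under alternatives that kept all libraries, 507 kept their direction and their side of the threshold or their size, and of 242 with 1 library left out, 163 did. Causes of the changes were not tested.

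DESeq2 called 1358 genes under MPA+E, and 4017 genes and 4 members in hyperplasia against normal tissue. With the placebo libraries added to normal tissue, hyperplasia had 695 genes called. The replicate block gave 2451 genes under MPA+E, where numbers are only shared (r of 0.383 across 15642 genes, 2 pairs). Rarb was called there (-1.06, edgeR adjusted p = 0.00201), and pericyte markers were lower in the same libraries. For hyperplasia against normal tissue the block gave 3582 genes, and it changed no other member's call. It coded puberty and adult with number 1, so its values against normal tissue are at the level of number 1. Without thinning, 3 pairs were above expectation in every library.

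Leaving out 1 library gave 22 to 900 genes and 0 to 4 members for MPA+E, 1 to 4810 genes and 0 to 5 members for hyperplasia against normal, 910 to 5479 genes and 3 to 7 members for tumour against normal, and 242 to 7120 genes and 0 to 8 members for tumour against hyperplasia. Log2 fold changes of uncalled members turned sign in these ranges: under MPA+E Rbp4 -0.32 to 0.10 and Crabp2 -0.43 to 0.24; hyperplasia against normal Aldh1a1 -0.061 to 0.19 and Cyp26b1 -0.40 to 0.42; tumour against normal Rbp4 -0.83 to 0.067, Aldh1a3 -2.15 to 1.04 and Rarb -0.40 to 0.20; tumour against hyperplasia Aldh1a3 -3.01 to 0.17 and Crabp1 -0.55 to 0.011.

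With all libraries kept, these uncalled values turned sign: hyperplasia against normal Aldh1a1 with a 5% mitochondrial limit (-0.010) and Cyp26b1 with the block (-0.021); tumour against normal Rarb with a fibroblast threshold of 100 (0.013), Rbp4 with placebo added (0.0092), and Aldh1a3 with DESeq2 (0.19), edgeR (0.18) and the block (0.11). The Crabp2 stage ratio was 0.647 with non-fibroblasts kept. Crabp1's co-detection crossed 1 with Rbp4 at 4000 UMIs (1.04) and, without thinning, with Rbp4 (1.19) and Aldh1a1 (0.998). With Aldh1a2 (0.289) and Crabp2 (1.06) it did so over 7 and 9 libraries in place of 2 and 3, too few for these pairs to be counted with thinning.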

Other observations

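Outside the comparisons, the members least described differed in the genes that went with them. The genes most like Cyp26b1 were Ntf3, a neurotrophin (mean log2 ratio 1.40, above 0 in 13 of 13 libraries), Cpxm2 (1.23), Tmem176b (1.17) and Ccn5 (1.15). Those most like Rbp4 were the fatty acid transporter Cd36 (0.96, 11 of 13), Thbs4 (0.94), Zim1 (0.93, 13 of 13) and Adamtsl2 (0.92). The ratios of Aldh1a1 were led by the coagulation factor gene F5 (1.35) and by Nos1 (1.13), Col25a1 (0.98) and Fcgr2b (0.97), the last 3 of which also ranked high for Crabp1. For Rarb, counted in 10 libraries, the genes were Dnase1l1 (1.02), Tmem28 (1.01), Cstf2t (0.83) and Bmp3 (0.81).

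Several other retinoid genes also differed between the stages, with 1 library each and no test. Adh1 was at 23.5 CPM in puberty, 37.6 and 31.2 CPM in the adult and pregnancy, 79.0 CPM in lactation and 51.6 CPM at involution, and Adh7 was likewise highest in lactation (49.9 CPM) and lowest in puberty (10.9 CPM). Stra6, Aldh1a1 and Aldh1a3 were also highest in lactation. Tgm2 stood at 128 CPM in puberty and 104 CPM in the adult, and at 38.7, 15.2 and 29.6 CPM at the next 3 stages. Cyp1b1 was highest in involution (66.1 CPM) and lowest in puberty (24.0 CPM).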
